A study of Mus musculus with 4 samples.

Results

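The genes of MHC class II antigen presentation were chosen by symbol, 10 of the 32285 genes in the count tables, and their transcripts were followed through every cell lineage of TNF- and TNF+ lung and synovium. They were H2-Ab1, H2-Aa and H2-Eb1, which encode the classical alpha and beta chains, Cd74, H2-DMa, H2-DMb1, H2-DMb2, H2-Oa, H2-Ob and Ciita. All 10 had at least 1 UMI (unique molecular identifier, 1 per captured transcript molecule) in each of the 4 libraries. TNF+ mice carried a human TNF transgene (TNF-Tg, C57BL/6 background), and develop chronic erosive arthritis and pulmonary vascular disease. TNF- mice were littermates without it. All mice were females of 4 months, and each group was 1 library of viable sorted cells pooled from 3 to 5 mice (lung) or 5 to 10 mice (synovium), made with a 3′ single-cell kit after red cell lysis. With 1 library per group no test between genotypes could be made. Every interval below is a 95% interval that covers counting error only, and differences between animals are not covered. The human transgene was not in the mouse reference, so the TNF+ label was not checked from its transcripts.

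MHC class II molecules carry peptides from endocytosed proteins to the surface for CD4+ T cells. The alpha and beta chains pair in the endoplasmic reticulum with the invariant chain encoded by Cd74, which blocks the groove until proteases cut it down. H2-DM, a dimer of H2-DMa with an H2-DMb chain, then releases the remaining fragment and edits the bound peptides, and H2-DO, the dimer of H2-Oa and H2-Ob, restrains H2-DM, mainly in B cells. Ciita encodes the coactivator that switches the whole set on, constitutively in dendritic and B cells and after interferon gamma in many other cells. C57BL/6 mice do not make the E alpha chain, so H2-Eb1 is transcribed in them without an E dimer, and H2-Ea was not analysed here. In GRCm38, 8 of the 10 genes lay in 224.3 kb of chromosome 17 (positions 34092340 to 34316674), with H2-Oa, H2-DMa, H2-DMb2, H2-DMb1, H2-Ob, H2-Ab1, H2-Aa and H2-Eb1 in that order and H2-Aa alone on the minus strand. Ciita lay on chromosome 16 (10480059 to 10528418). H2-DMb1 and H2-DMb2 are near-identical neighbours, and reads may have been lost or split between them, so the separate values of these 2 genes are uncertain.

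Class II promoters are known for an X box and a Y box a short way before the start, which hold the complex on which Ciita acts. RefSeq promoters (GRCm38.p6, 250 bases before to 50 after the annotated start) were read for 7 of the 10 genes, with 8 entries because H2-DMa has 2 starts. H2-Ab1 and Ciita had no entry, and Cd74 was left out of the member search. The letters ATTGG (a core of the Y box) were in 37.4% of 32851 mouse promoters on either strand, and AACNGATG (letters of the X box) in 2.32%. The pair had ATTGG starting 10 to 40 bases after the start of AACNGATG on the same strand. It was in 11 promoters of all genes, 0.0335%, and 3 of them belonged to the 7 genes read. H2-Eb1 had it at a spacing of 30 bases and H2-DMb1 and H2-DMb2 at 31 bases. H2-Aa, H2-Oa, H2-Ob and 1 of the 2 H2-DMa entries held ATTGG without the other letters. A match is a description of letters and shows no binding. The 3 promoters with the pair are shown with that of H2-Aa, a classical chain without it. Capitals mark AACNGATG and ATTGG (or its reverse complement) in H2-Eb1 (chr17:34305617-34305916, plus strand), H2-DMb1 (chr17:34152941-34153240, plus strand), H2-DMb2 (chr17:34144999-34145298, plus strand) and H2-Aa (chr17:34287774-34288073, minus strand).
H2-Eb1: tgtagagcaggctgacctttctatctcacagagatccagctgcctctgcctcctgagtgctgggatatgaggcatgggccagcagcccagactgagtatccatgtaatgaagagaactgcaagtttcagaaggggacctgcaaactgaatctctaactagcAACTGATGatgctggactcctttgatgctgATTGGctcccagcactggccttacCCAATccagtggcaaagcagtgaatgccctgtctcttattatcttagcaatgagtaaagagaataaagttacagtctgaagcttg
H2-DMb1: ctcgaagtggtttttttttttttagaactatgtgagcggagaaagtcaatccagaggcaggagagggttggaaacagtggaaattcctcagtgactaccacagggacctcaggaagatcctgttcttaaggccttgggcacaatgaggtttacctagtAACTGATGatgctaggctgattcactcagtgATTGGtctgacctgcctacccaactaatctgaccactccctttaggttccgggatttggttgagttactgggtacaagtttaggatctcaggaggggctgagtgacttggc
H2-DMb2: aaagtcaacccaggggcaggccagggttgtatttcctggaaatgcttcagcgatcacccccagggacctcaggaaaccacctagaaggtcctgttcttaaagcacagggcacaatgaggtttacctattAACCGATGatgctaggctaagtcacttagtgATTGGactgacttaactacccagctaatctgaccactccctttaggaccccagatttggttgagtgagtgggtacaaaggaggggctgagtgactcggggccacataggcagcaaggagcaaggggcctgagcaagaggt
H2-Aa: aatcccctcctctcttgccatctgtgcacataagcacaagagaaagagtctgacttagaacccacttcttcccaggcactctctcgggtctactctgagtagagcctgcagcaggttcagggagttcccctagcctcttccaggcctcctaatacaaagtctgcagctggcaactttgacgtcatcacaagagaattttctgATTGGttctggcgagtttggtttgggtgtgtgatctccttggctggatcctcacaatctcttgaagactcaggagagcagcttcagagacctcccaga

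The 4 libraries held 8555 and 11243 barcodes for TNF- and TNF+ lung and 6899 and 4246 for TNF- and TNF+ synovium, with 48454234 to 155989523 UMIs each, and 5 to 21 barcodes were shared by each pair of libraries. The study's limits (200 to 5000 genes and at most 20% mitochondrial UMIs) left 6998, 9174, 6200 and 3152 cells, which held 353791, 714769, 369843 and 214269 UMIs of the 10 genes. Cells above 5000 genes held 40.4%, 56.6%, 24.8% and 2.05% of all class II UMIs in the same order, so the upper limit took away a different part of the class II transcripts from each library. Clusters were rebuilt without the class II genes and named from marker genes as dendritic-like, B cell-like and so on. Alveolar type 2-like cells marked the lung and fibroblast-like cells the synovium, where 2 clusters led by muscle or satellite cell genes were also found (369 and 192 TNF- cells, 17 and 5 TNF+ cells). Cells above 20% mitochondrial UMIs were 1.41% to 3.78% of barcodes in the other 3 libraries and 17.6% in TNF+ synovium. Several types were held by different clusters in the 2 genotypes, and those are named beside the values. Levels are given as CPM (UMIs of the gene scaled to 1000000 UMIs of the same cells), and the class II sum is the sum over the 10 genes.

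In all kept cells of a tissue, the class II sum was higher in TNF+ than TNF- samples. It was 6576 CPM in TNF- and 8469 CPM in TNF+ lung, a log2 ratio of 0.36 (interval 0.36 to 0.37), and 4853 and 6484 CPM in synovium, a log2 ratio of 0.42 (0.41 to 0.43). With no limits on cells the synovial ratio was -0.27. The 3 classical chains and Cd74 were on the higher side in both tissues, with log2 ratios of 0.28 to 0.58 in lung and 0.35 to 0.58 in synovium. The other genes were lower or close. H2-DMa was at 0.06 in lung and -0.10 in synovium, H2-DMb1 was at -0.29 in lung and -0.24 in synovium, H2-Ob at -0.51 and -0.91, and Ciita at -0.13 and -1.12. Of the 10 genes, 0 were at least 2-fold up in lung, where 5.79% of 19510 genes with at least 20 UMIs were, and 0 at least 2-fold down, against 25.5%. In synovium 0 were 2-fold up against 11.8% of 19255 genes, and 1, Ciita, was 2-fold down against 21.9%. The median over the members was 0.02 in lung (all genes -0.32) and -0.17 in synovium (all genes -0.17). Whole-tissue values mix how many cells of each type were recovered with how much RNA each held, and the 2 cannot be told apart here.

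The cells that carried class II transcripts differed between tissues and between genotypes. B cell-like cells held 54.3% of the class II UMIs of TNF- lung, and dendritic-like and macrophage or monocyte-like cells 15.5% each. In TNF+ lung the shares were 33.6% for B cell-like, 32.4% for macrophage or monocyte-like and 27.3% for dendritic-like cells. Stroma and epithelium held part of the total in TNF- lung, with 8.09% in blood endothelium-like and 3.45% in alveolar type 2-like cells, against 0.61% and 0.93% in TNF+ lung. In TNF- synovium 84.6% lay in dendritic-like cells and 9.75% in macrophage or monocyte-like cells. In TNF+ synovium macrophage or monocyte-like cells held 64.3% and dendritic-like cells 32.1%. These shares follow the cells recovered as well as their levels. Dendritic-like cells were 91 of 6998 and 303 of 9174 cells for TNF- and TNF+ lung, and 370 of 6200 and 81 of 3152 for TNF- and TNF+ synovium, and macrophage or monocyte-like cells 630, 4414, 223 and 1110.

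**Figure D1:**
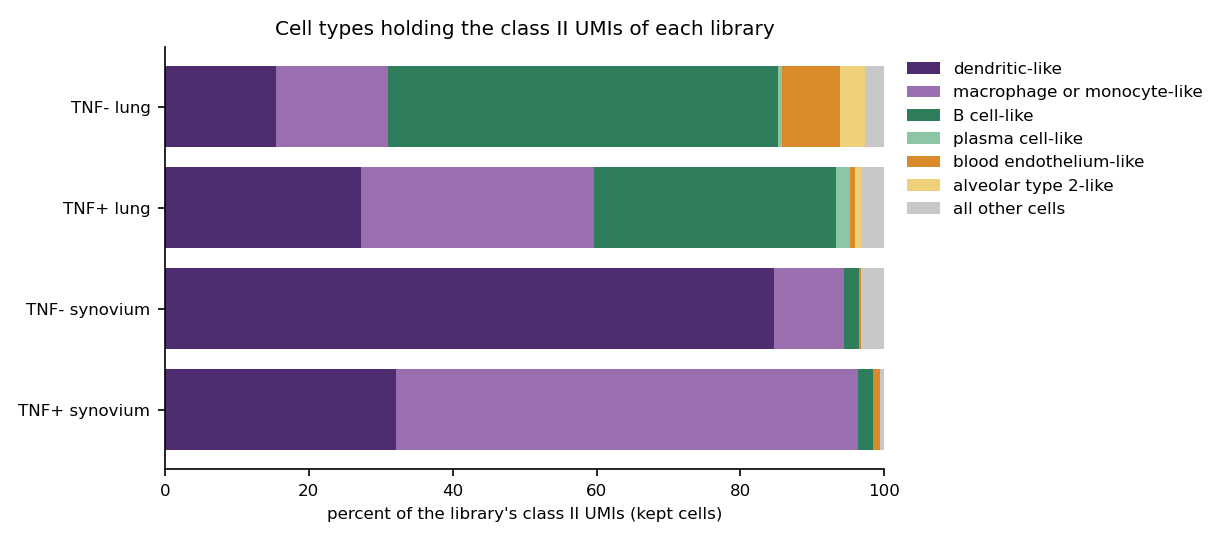
Percent of each library's class II UMIs in kept cells (x axis), by cell type (colours), for the 4 libraries. The B cell-like part is the widest in TNF- lung at 54.3%, and the dendritic-like part of synovium goes from 84.6% in TNF- to 32.1% in TNF+.

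Within types, dendritic-like cells had the highest level in both genotypes of lung, with 38290 CPM in TNF- and 46185 CPM in TNF+, or 603 and 643 class II UMIs per cell. Among the named types, B cell-like cells followed with 19867 and 20468 CPM. Macrophage or monocyte-like cells came next with 7952 and 5565 CPM, then alveolar type 2-like cells with 4351 and 7481 CPM. These last types changed places in TNF+ lung. An unnamed cluster led by Mki67 (cluster 30, 59 TNF+ cells) stood at 11746 CPM in TNF+ lung. In synovium dendritic-like cells had 45105 and 55302 CPM, macrophage or monocyte-like cells 12624 and 9065 CPM, blood endothelium-like cells 366 and 443 CPM, and fibroblast-like cells 70.1 and 103 CPM. At the low end, mouse T cells are taken to make no class II and give a level of free RNA. They had 4.08 UMIs per cell in TNF- lung and 8.64 in TNF+ lung, and NK or innate lymphoid-like cells had 2.16 and 9.98, mast cell or basophil-like cells 1.98 and 6.65, and neutrophil-like cells 3.70 and 9.87. Every one of these types was thus higher in the TNF+ lung library. Lyz2 was higher in T cell-like cells of the same library too, at 123 and 942 CPM in TNF- and TNF+ lung. In lung it was not confined to myeloid cells (7916 and 11996 CPM), with 14951 and 14342 CPM in epithelium.

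**Figure D2:**
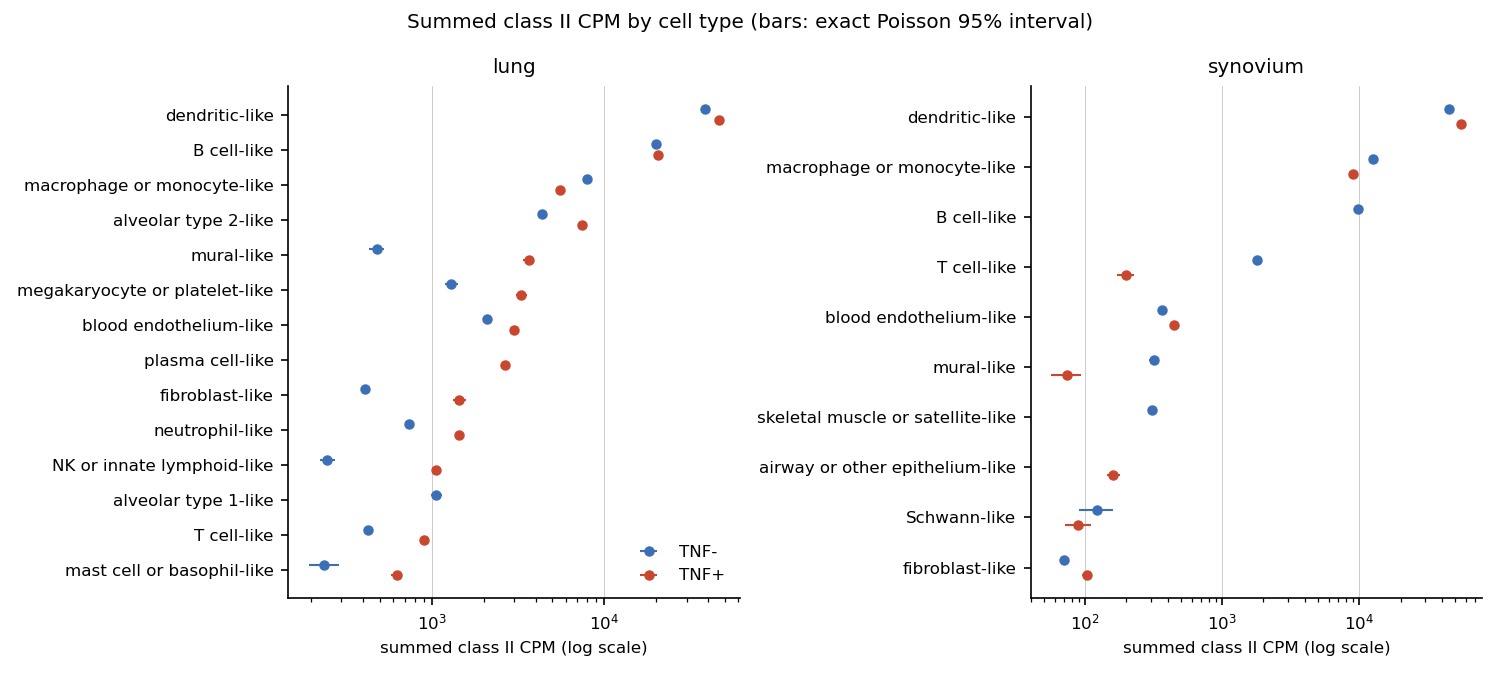
Class II sum in CPM (x axis, log scale) by cell type (y axis) in lung and synovium, for types with at least 50 cells in a library, TNF- in blue and TNF+ in red, with exact Poisson 95% intervals. Dendritic-like cells lie at 38290 to 55302 CPM in all 4 libraries, and most types low in class II lie higher in TNF+ lung than in TNF- lung.

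Counted cell by cell, after thinning each cell to 1000 UMIs, most B cell-like and dendritic-like cells and a smaller part of the macrophages carried class II. At least 5 class II UMIs of 1000 were found in 97.9% of B cell-like and 88.9% of dendritic-like cells of TNF- lung, and in 96.8% and 91.8% of those of TNF+ lung. In synovium 96.2% (TNF-) and 93.8% (TNF+) of dendritic-like cells reached it, and 83.9% of B cell-like cells of TNF- synovium. Dendritic-like cells were spread widely above it, with 53.3% of those of TNF- lung at 30 or more and 27.8% at 50 or more. Of macrophage or monocyte-like cells, 139 of 615 reached it in TNF- lung (22.6%), 532 of 3842 in TNF+ lung (13.8%), 91 of 220 in TNF- synovium (41.4%) and 285 of 1069 in TNF+ synovium (26.7%). The 10% of these cells with the most class II UMIs held 80.4% and 85.9% of the type's class II UMIs in lung and 49.0% and 66.7% in synovium. T cell-like cells reached 5 UMIs in 1.44% and 2.15% in lung, and in 9 of 271 and 1 of 143 cells in synovium. Without thinning, 62.5% of macrophage or monocyte-like cells of TNF- lung and 76.3% of those of TNF+ lung had at least 5 class II UMIs, the opposite order, and so did 58.4% of T cell-like cells of TNF+ lung.

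**Figure D3:**
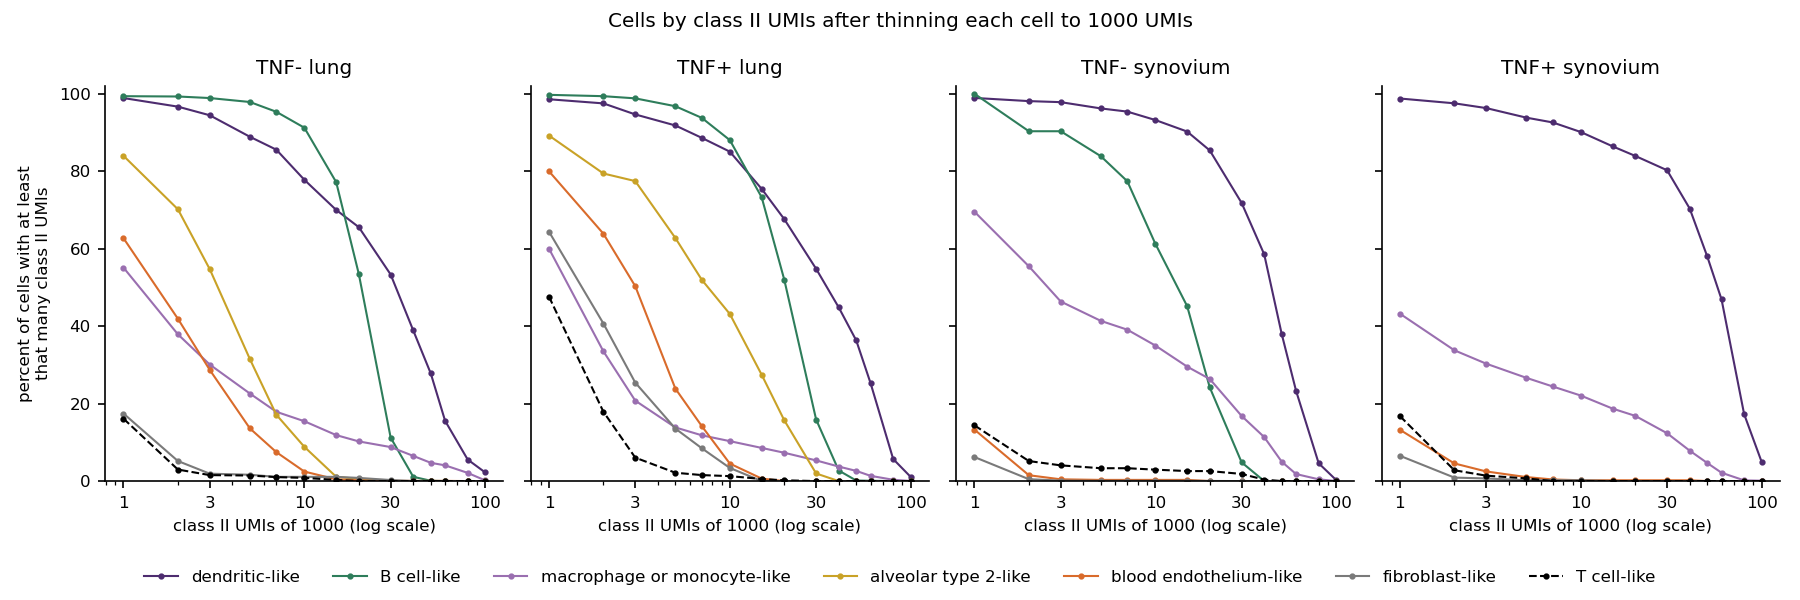
Percent of cells (y axis) with at least a given number of class II UMIs (x axis, log scale) after thinning each cell to 1000 UMIs, per library and cell type, with T cell-like cells dashed as the level of free RNA. Dendritic-like curves are still at 77.8% to 93.2% at 10 UMIs, and the macrophage or monocyte-like curves start at 43.2% to 69.5% at 1 UMI.

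In dendritic-like cells, the classical chains were higher in TNF+ samples of both tissues and H2-DM was lower. H2-Ab1 was at 5828 and 7466 CPM in TNF- and TNF+ lung and at 8259 and 10357 CPM in synovium, log2 ratios of 0.36 and 0.33. H2-Eb1 had the highest ratio of the classical chains in both tissues, 0.57 in lung (5480 and 8130 CPM) and 0.57 in synovium (7570 and 11241 CPM). H2-Aa was at 0.30 and 0.45, and Cd74 at 0.18 and 0.16. H2-DMa, the alpha chain of the peptide editor, was at 756 and 628 CPM in lung (-0.27, interval -0.37 to -0.16) and at 765 and 497 CPM in synovium (-0.62, -0.74 to -0.50). H2-DMb1 was at 626 and 427 CPM in lung (-0.55, -0.67 to -0.43) and at 724 and 416 CPM in synovium (-0.80, -0.93 to -0.67). H2-Ob, the beta chain of H2-DO, was at -0.34 and -0.76, and H2-Oa at 0.01 and 0.60. None of the 10 genes was past 2-fold in either tissue. In lung 5.31% of all genes were 2-fold up and 6.33% down, and in synovium 6.57% up and 16% down. The class II sum was 0.27 on the log2 scale higher in lung and 0.29 in synovium, and under the alternatives it was 0.03 to 0.39 and 0.26 to 0.36. Lyz2 was at 1056 and 4305 CPM in lung dendritic-like cells and at 2759 and 3119 CPM in synovial ones, and its part in these differences was not tested.

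**Figure D4:**
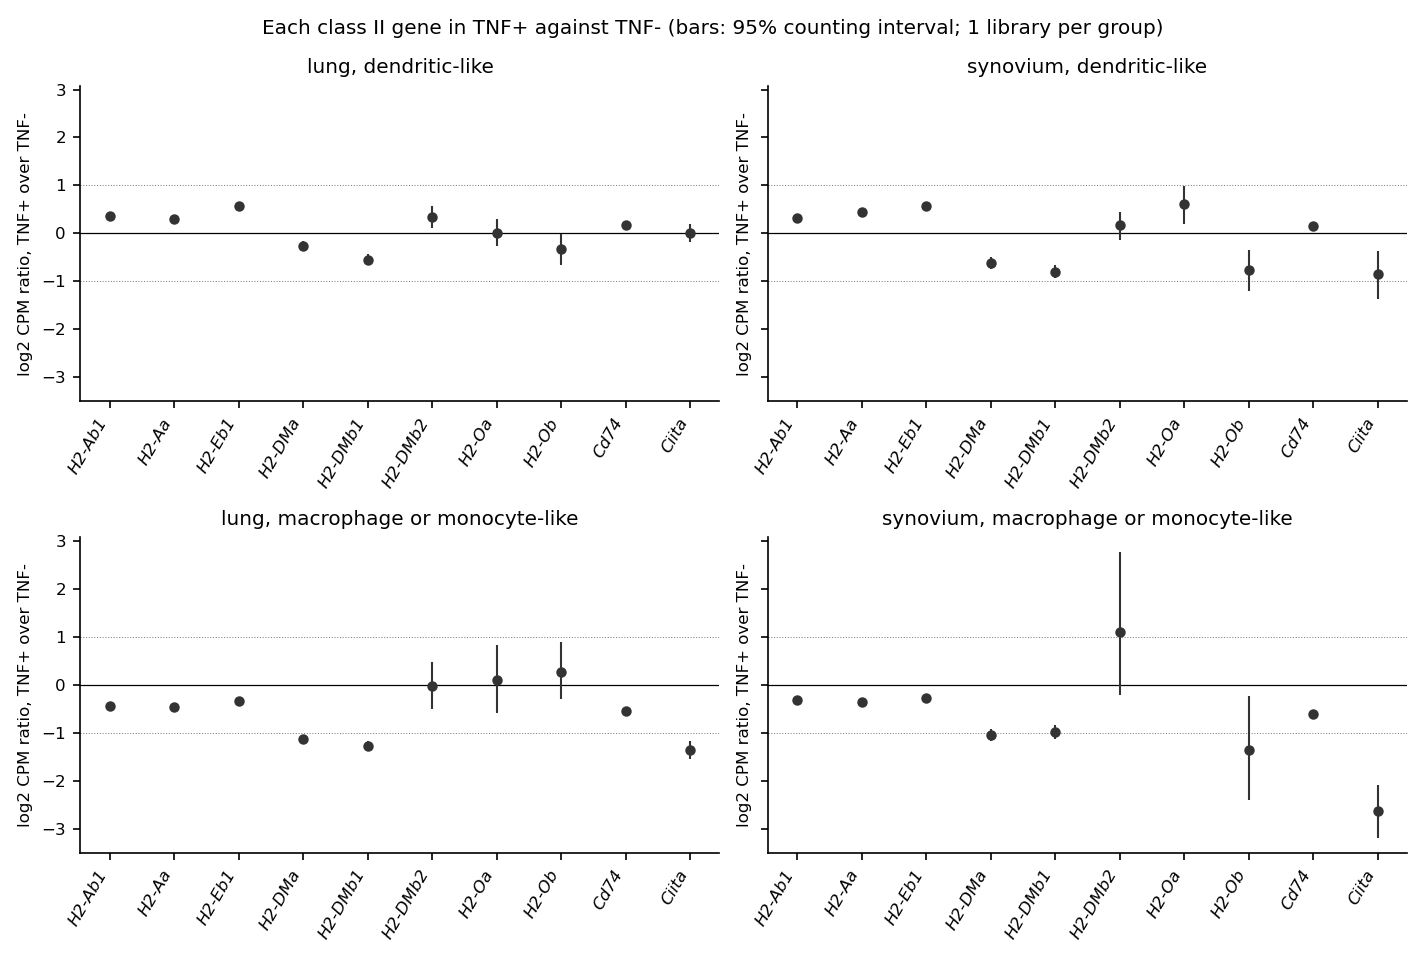
Log2 ratio of CPM, TNF+ over TNF- (y axis), for each class II gene with at least 20 UMIs over both libraries (x axis), in dendritic-like cells (top) and macrophage or monocyte-like cells (bottom) of lung and synovium, with 95% counting intervals and dotted lines at 2-fold. H2-DMa and H2-DMb1 lie below the classical chains in all 4 panels, and Ciita is lowest in both macrophage panels.

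In macrophage or monocyte-like cells, the class II sum was lower in TNF+ samples of both tissues, at 7952 and 5565 CPM in lung (log2 ratio -0.51, interval -0.53 to -0.50) and at 12624 and 9065 CPM in synovium (-0.48, -0.49 to -0.46). The lung value turned with the cell limits. It was 0.54 with no limits on cells and -0.08 with the highest doublet scores removed. When all barcodes were clustered, 360 of 960 such cells of TNF- lung were above 5000 genes and stood at 2854 CPM, and 1128 of 4804 of TNF+ lung stood at 8361 CPM. The synovial value was -1.04 with no limits and -0.08 with median-of-ratios scaling. The classical chains were at -0.34 to -0.46 in lung and -0.28 to -0.36 in synovium, and Cd74 at -0.55 and -0.61. H2-DMa was at 225 and 103 CPM in lung (-1.13) and 256 and 124 CPM in synovium (-1.05). H2-DMb1 was at 154 and 63.8 CPM in lung (-1.27) and 201 and 101 CPM in synovium (-0.99). Of 10 genes tested in lung, 3 (H2-DMa, H2-DMb1 and Ciita) were at least 2-fold down, where 14.1% of all genes were, and 0 up against 4.91%. Of 9 tested in synovium, 3 (H2-DMa, H2-Ob and Ciita) were 2-fold down against 19.3%, and 1, H2-DMb2, was 2-fold up against 9.28%, on 5 and 57 UMIs (1.10, interval -0.21 to 2.77). The members' median was -0.45 in lung (all genes -0.11) and -0.61 in synovium (all genes -0.20).

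The single macrophage clusters did not all follow the type. In lung, a cluster led by Cxcl13 and the C1q genes (cluster 15, 64 and 241 cells) had the highest levels, 46251 and 29170 CPM. The dendritic-like cells of lung stood at 38290 and 46185 CPM. The 3 classical chains of cluster 15 were at -0.66 to -0.62. A cluster led by F13a1 and Ccr2, genes of classical monocytes and the cells they give rise to (cluster 7, 131 and 435 cells), went the other way, with 4629 and 12421 CPM, a log2 ratio of 1.42 (1.39 to 1.46). There H2-Eb1 was at 468 and 2057 CPM (2.14), H2-Ab1 at 1.53, H2-Aa at 1.55 and Cd74 at 1.34, while H2-DMa was at 225 and 231 CPM (0.03) and H2-DMb1 at 143 and 136 CPM (-0.07). C1qa was also higher in that cluster, 163 and 683 CPM, and whether the same kind of cell fills it in both libraries was not tested. A cluster led by Cd300e and Treml4, genes of non-classical monocytes (cluster 0, 304 and 2763 cells), was low in both, 1921 and 1059 CPM (-0.86). The cluster with Chil3, Ear1 and Plet1, genes of alveolar macrophages (cluster 21, 103 and 70 cells), was at 2190 and 1993 CPM (-0.14). Cluster 6, led by Spp1 and Marco, held 28 and 905 cells at a median depth of 1203 and 776 UMIs and had 15291 and 10586 CPM. Cluster 0 held 2763 of the 4414 TNF+ cells of the type and 304 of the 630 TNF- cells, and the value for the type mixes makeup and level.

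In synovium the cluster led by C1qa, C1qb and C1qc (cluster 12, 75 and 168 cells) was at 25598 and 14777 CPM (-0.79, -0.82 to -0.77). A cluster led by Treml4 (cluster 9, 87 and 188 cells) was at 3578 and 924 CPM (-1.95). A small cluster with Ly6c2 and Chil3, genes of classical monocytes (cluster 23, 52 and 20 cells), was at 7532 and 173 CPM (-5.45), on 6281 and 45 class II UMIs. Its H2-Ab1 count was 994 UMIs in TNF- and 2 in TNF+. Cluster 3, led by Spp1, Cxcl2 and Trem2, held 734 TNF+ and 9 TNF- cells and was at 8866 CPM in TNF+, so it could not be compared between genotypes. Across all myeloid cells of synovium the class II sum was 34849 CPM in TNF- and 12476 CPM in TNF+ (-1.48, -1.49 to -1.47), and 10 of 10 genes were at least 2-fold down, where 19.9% of all genes were. This value mixes 2 types. Dendritic-like cells were 370 of 620 myeloid cells in TNF- and 81 of 1214 in TNF+. Within dendritic-like cells the ratio was 0.29 and within macrophage or monocyte-like cells -0.48. The latter still mixes clusters, as cluster 3 held 734 of the 1110 TNF+ cells of that type and 9 of the 223 TNF- cells.

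In every type with enough UMIs in both libraries to be compared, H2-DM was lower relative to the classical chains in TNF+ samples. This ratio was examined after the values were seen. It was taken as H2-DMa and H2-DMb1 UMIs per 100 UMIs of H2-Ab1, H2-Aa and H2-Eb1, which needs no scaling by depth. In dendritic-like cells it was 8.01 in TNF- and 4.60 in TNF+ lung (log2 ratio -0.80, interval -0.88 to -0.72) and 6.47 and 2.90 in synovium (-1.16, -1.25 to -1.07). In macrophage or monocyte-like cells it was 10.7 and 6.24 in lung (-0.77) and 7.65 and 4.70 in synovium (-0.70). B cell-like cells of lung were closer, at 7.21 and 6.12 (-0.24, -0.29 to -0.18), and alveolar type 2-like cells were at 10.0 and 7.77 (-0.37). Lung blood endothelium-like cells were at 15.5 and 7.62 (-1.02). T cell-like cells of lung, whose class II sum was taken for the free RNA, were lower too, at 31.07 and 14.98 (-1.05). Most of that value was H2-DMa, at 28.3 and 12.7, while H2-DMb1 was at 2.73 and 2.27 (-0.27, interval -0.81 to 0.30). Synovial blood endothelium-like cells were at 9.12 and 6.21 (-0.55), with an upper limit of 0.00 and a sign that turned under 2 alternatives, 0.64 and 1.12. Synovial fibroblast-like cells were not among the types compared. In them H2-DMb1 made up 2.64% of the class II sum in TNF- and 9.0% in TNF+, and H2-DMa 5.76% and 3.18%. The lower ratio is thus not shown for types outside those compared.

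The same held in 9 of 9 myeloid clusters with enough UMIs in both libraries, with the interval below 0 in 8 of them. These repeat in part the values by type. Synovial cluster 5 is the whole dendritic-like type of synovium, and lung cluster 10 held 78 of 91 TNF- and 284 of 303 TNF+ dendritic-like cells. The log2 ratio ran from -1.72 in the F13a1 and Ccr2 cluster of lung (19.7 and 5.98 per 100) to -0.23 in the Cd300e and Treml4 cluster (16.2 and 13.8). The interval that included 0 was that of the Siglech cluster of plasmacytoid dendritic-like cells (cluster 34, 13 and 19 cells), at 15.8 and 13.1. The alveolar macrophage cluster stood apart in level, with 61.6 and 45.5 per 100, more H2-DM relative to the classical chains than any other myeloid cluster compared. Under the alternatives run for this ratio, it stayed below 0 in lung macrophage or monocyte-like cells (-1.30 to -0.64). The same was seen in synovial dendritic-like cells (-1.21 to -1.11). Subtraction of the T cell-like level, clustering of each library by itself and the higher clustering resolution were not run for it. Median-of-ratios scaling could not change a ratio that needs no scaling by depth. The clusters are parts of the same 4 libraries and not replicates.

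**Figure D5:**
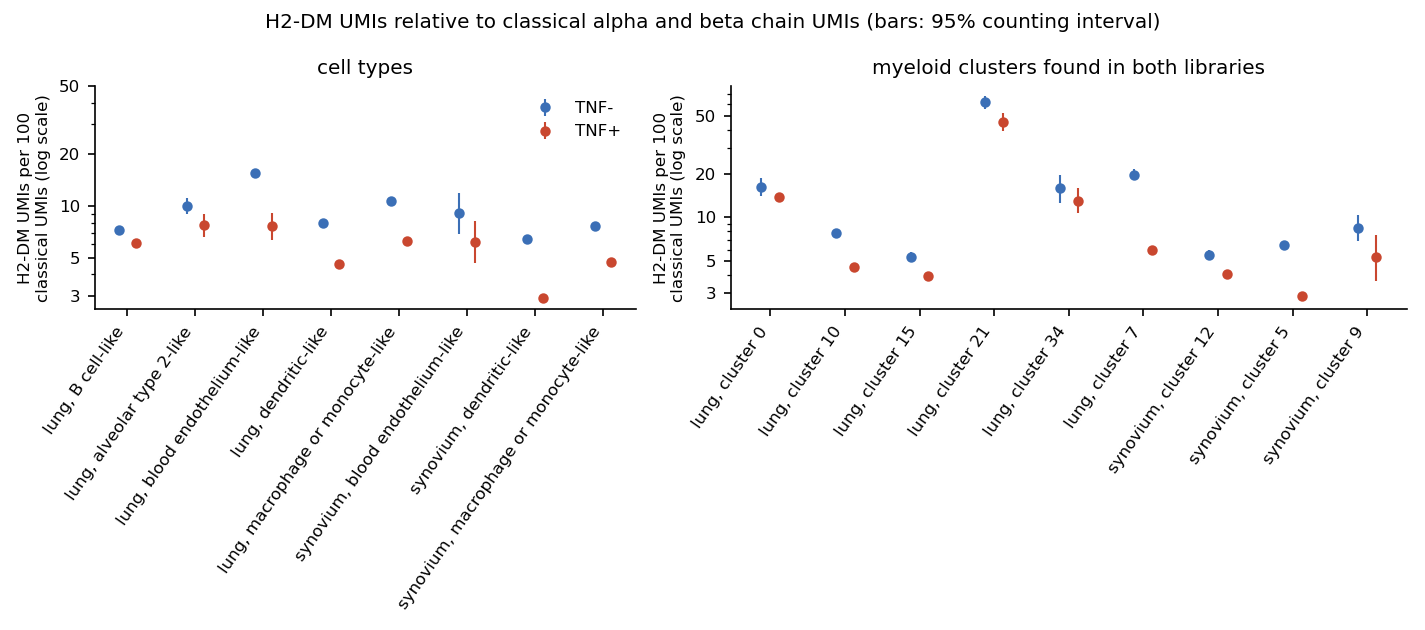
H2-DMa and H2-DMb1 UMIs per 100 classical chain UMIs (y axis, log scale) in cell types (left) and in myeloid clusters present in both libraries (right), TNF- in blue and TNF+ in red, with 95% counting intervals. The TNF+ value is below the TNF- value in every pair plotted, with 19.7 against 5.98 in lung cluster 7.

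H2-DO and H2-DMb2 made up more of the set in B cell-like cells than in the myeloid cells. Per 100 classical UMIs, H2-Oa and H2-Ob together stood at 8.05 in B cell-like cells of TNF- lung, against 1.04 in dendritic-like and 0.20 in macrophage or monocyte-like cells. H2-DMb2, the other DM beta chain, stood at 5.91 against 0.76 and 0.17. In TNF+ lung the B cell-like values were 6.87 for H2-DO and 4.65 for H2-DMb2. B cell-like cells of lung were close between genotypes in the class II sum, 19867 and 20468 CPM (0.04, 0.03 to 0.05), or 151 and 167 UMIs per cell. H2-Ab1 was at 0.28, H2-Aa at 0.19, H2-Eb1 at 0.07, Cd74 at -0.04, H2-DMb1 at -0.36, H2-DMb2 at -0.17 and H2-Ob at -0.18. None of the 10 was past 2-fold, against 5.8% of all genes up and 7.33% down. These cells were mostly cluster 3 in TNF- (1208 of 1270) and cluster 2 in TNF+ (1336 of 1438), so the comparison sets different clusters against each other. In synovium the B cell-like cluster held 62 TNF- and 36 TNF+ cells, with 9846 and 20536 CPM and 121 and 124 UMIs per cell. Jchain and Mzb1, markers of plasma cells, were among its leading genes, and no separate plasma cell cluster was named there. In all synovial lymphocytes Ighm was at 5101 and 1815 CPM, and its part in the CPM difference was not tested.

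Cd74 lies apart from the other genes on chromosome 18 (GRCm38 positions 60803848 to 60812652, plus strand), and plasma cell-like cells had it with little else of the set. In TNF+ lung (149 cells) they had 96.9 class II UMIs per cell, of which 85.3% were Cd74, and Cd74 stood at 628 UMIs per 100 classical UMIs against 129 in B cell-like cells of the same library. H2-Ab1 was at 176 CPM in them and 2481 CPM in B cell-like cells, and H2-DMa at 12.6 and 356 CPM. TNF- lung held 22 plasma cell-like cells with 86.3 class II UMIs per cell, too few to compare. In alveolar type 2-like cells Cd74 was also high relative to the classical chains, 201 per 100 in TNF- and 172 in TNF+.

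Ciita, the coactivator, had values that differed in direction from those of the classical chains in several comparisons. In dendritic-like cells of lung it was at 207 CPM in both genotypes (0.00, -0.19 to 0.20), and in those of synovium at 53.8 and 29.8 CPM (-0.85, -1.38 to -0.36) while the class II sum was higher. In macrophage or monocyte-like cells it was at 47.5 and 18.4 CPM in lung (-1.37, -1.56 to -1.18) and at 21.4 and 3.42 CPM in synovium (-2.64, -3.21 to -2.08), more than the classical chains in both. In the F13a1 and Ccr2 cluster of lung it was at 69.4 and 43.5 CPM (-0.67), where the classical chains were at 1.53 to 2.14. In B cell-like cells of lung it was at 148 and 184 CPM (0.32), and in alveolar type 2-like cells at 28.2 and 85.9 CPM (1.61, on 79 and 76 UMIs). In lung macrophage or monocyte-like cells the ratio was -0.57 with no limits on cells.

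Outside the immune cells, alveolar type 2-like cells, the surfactant cells of the alveolus, carried class II in TNF- lung well above the free RNA level. They had 66.3 UMIs per cell against 4.08 in T cell-like cells, with 0.43 Ciita and 1.31 H2-DMb1 UMIs per cell against 0.036 and 0.038. Of 181 deep enough to thin, 57 had at least 5 class II UMIs of 1000 (31.5%), and 15.8% of those 57 had a Cd79a UMI against 6.45% of the others. In TNF+ lung the CPM was higher, 7481 (0.78, 0.74 to 0.83), but the UMIs per cell were lower, 53.4, and the median depth was 16611 UMIs in TNF- and 4639 in TNF+. The type also held 65 TNF+ cells of a shallow cluster led by Scgb1a1 (cluster 29). In the cluster led by Sftpb and Sftpc (cluster 18, 172 and 59 cells) the levels were 4260 and 6603 CPM (0.63). The UMIs per cell were also higher there in TNF+, 68.2 and 83.9, at median depths of 17195 and 11212 UMIs. Of its thinned cells, 29.4% in TNF- and 42.4% in TNF+ had at least 5 class II UMIs of 1000. Over the whole type, 64 thinned TNF+ cells reached this number and 38 did not. In all lung epithelium 4 of 9 genes were at least 2-fold up (H2-Ab1, H2-Eb1, H2-DMb2 and Ciita), where 11.8% of all genes were, and the members' median was 0.85 (all genes 0.03). In the same cells C1qa was at 0.85 and 60.3 CPM (3 and 59 UMIs) and Ptprc, the pan-leukocyte gene, at 38.8 and 92.0 CPM, and their part in the difference was not tested.

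Blood endothelium-like cells of lung were split by cluster. In TNF- lung the cluster led by Plvap and Gpihbp1 among others, genes of general capillaries (cluster 1, 1413 cells), had 18.1 class II UMIs per cell, and the cluster with Ednrb and Car4, genes of the aerocytes (cluster 16, 258 cells), had 2.29 at a similar depth (6787 and 7355 median UMIs). The latter was below the T cell-like level. Cluster 1 had 0.42 Ciita and 0.64 H2-DMb1 UMIs per cell against 0.019 and 0.054 in cluster 16, while H2-DMb2 was 0.042 and 0.031. A cluster with Vwf and Slc6a2, genes of veins (cluster 31, 65 cells), had 10.4. Per 100 classical UMIs the endothelium held 1.09 of H2-DO and 0.64 of H2-DMb2, against 8.05 and 5.91 in the B cell-like cells that gave most of the library's class II. Of the cells thinned to 1000 UMIs, 271 of 1993 had at least 5 class II UMIs (13.6%), and 1.11% of those 271 had a C1qa UMI against 0.93% of the others and 7.38% a Cd79a UMI against 3.02%.

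In TNF+ lung the endothelium was recovered with 392 cells against 2242 and at a median depth of 772 UMIs against 5546. Its class II sum was 2986 CPM against 2096 (0.51, 0.46 to 0.56) and 11.0 UMIs per cell against 12.8. Most of these cells were cluster 17 (260 cells, median 650 UMIs, 4.85 class II UMIs per cell), which is below the 8.64 of T cell-like cells in that library. A deeper TNF+ cluster (cluster 28, 88 cells, median 10478 UMIs) had 30.4 per cell. Lyz2 was at 128 and 1779 CPM and C1qa at 1.69 and 112 CPM in the type. With the T cell-like level taken away the ratio for the endothelium was -1.15, and with that of T cell-like cells under 5 thinned UMIs -0.37, so its sign differed between these settings. In all lung endothelium 1 of 10 genes, H2-Oa, was 2-fold up on 25 and 9 UMIs against 10% of all genes, and 1, Ciita, 2-fold down against 8.88%. Ciita was at 45.7 and 22.1 CPM in blood endothelium-like cells (-1.05).

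In lung mesenchyme the class II sum was 427 CPM in TNF- and 2142 CPM in TNF+ (2.33), and 7 of 9 genes (H2-Ab1, H2-Aa, H2-Eb1, H2-DMa, H2-DMb1, H2-DMb2 and Cd74) were at least 2-fold up, where 9.51% of all genes were. The members' median was 1.65 against -0.02 for all genes. It had 3.06 and 5.84 UMIs per cell, both below the T cell-like cells of the same library (4.08 and 8.64). In fibroblast-like cells the median depth was 5949 UMIs in TNF- and 987 in TNF+, and Lyz2 was at 241 and 2593 CPM and C1qa at 1.56 and 138 CPM. With the level of T cell-like cells under 5 thinned UMIs taken away the ratio for the mesenchyme was -2.63. Of the 6 TNF- fibroblast-like cells with at least 5 thinned class II UMIs, 66.7% had a Cd79a UMI against 3.88% of the others.

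Synovial stroma was near the floor in both genotypes. Fibroblast-like cells, which were 3295 of the 6200 TNF- cells, had 1.06 class II UMIs per cell, and the 459 TNF+ ones 1.30, near the T cell-like cells of TNF+ synovium (1.30) and the Schwann-like cells (0.78 and 0.38). At least 5 of 1000 thinned UMIs were found in 2 of 3286 and 1 of 444. The TNF+ fibroblast-like cells were mainly cluster 13, led by Saa3, Mmp13 and Mmp3 (232 TNF+ and 2 TNF- cells), which held 158 of the 175 H2-Ab1 UMIs and 48 of the 54 H2-DMb1 UMIs of TNF+ fibroblast-like cells. Over the type, H2-DMb1 was at 1.85 and 9.27 CPM (2.33, 1.81 to 2.83), or 0.028 and 0.12 UMIs per cell, and H2-Ab1 at 13.8 and 30.1 CPM (1.12), while H2-Aa was at 10.2 and 8.93 CPM (-0.19) and H2-Eb1 at 11.9 and 12.2 CPM (0.04). Lyz2 was at 6.27 and 124 CPM in these cells. Ciita had 25 UMIs in TNF- and 1 in TNF+ fibroblast-like cells. Blood endothelium-like cells of synovium had 1.77 and 3.49 UMIs per cell, 366 and 443 CPM (0.27, 0.17 to 0.38), with Lyz2 at 24.6 and 158 CPM (2.68) in the same cells, and 2 of 662 and 5 of 483 reached 5 thinned UMIs. The ratio was -0.071 with the highest doublet scores removed.

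Among lymphocytes and mast cells, single members stood out from the rest of the set. H2-Oa was at 0.49 UMIs per cell in mast cell or basophil-like cells of TNF- lung (25 UMIs in 51 cells, interval 0.32 to 0.72) and 0.52 in those of TNF+ lung (49 UMIs in 95 cells, 0.38 to 0.68), where H2-Oa made up 24.8% and 7.75% of the class II sum. T cell-like cells had 0.10 and 0.11, neutrophil-like cells 0.0099 and 0.050, and NK or innate lymphoid-like cells 0.031 and 0.044. The classical chains did not stand out in the same cells, with H2-Ab1 at 0.24 and 0.99. H2-DMa was at 0.39 and 0.47 UMIs per T cell-like cell and 0.35 and 0.41 per NK or innate lymphoid-like cell of lung, against 0.073 and 0.15 in neutrophil-like cells. Per 100 classical UMIs it was 28.3 in T cell-like cells of TNF- lung and 4.62 in B cell-like cells. The class II sum of T cell-like cells of TNF- synovium, 21.5 UMIs per cell, came from few cells. The 10% of them with the most held 96.3% of it, and all 9 cells with at least 5 thinned UMIs had a Lyz2 UMI, against 9.2% of the others.

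The genes around the pathway were read in dendritic-like and macrophage or monocyte-like cells as counts past 2-fold. They stand beside the shares over all genes given above, 4.91% up and 14.1% down in lung and 9.28% up and 19.3% down in synovial macrophage or monocyte-like cells, and 5.31% up and 6.33% down in lung and 6.57% up and 16% down in synovial dendritic-like cells. Of 5 genes of peptide processing (Ctss, Ctsl, Ctsb, Lgmn and Ifi30), 0 were past 2-fold in either lung type, 2 were up in synovial macrophage or monocyte-like cells (Ctsl and Ifi30) and 1 in synovial dendritic-like cells (Ifi30). Ifi30, the reductase of the endosome, was at 251 and 831 CPM in the former and 511 and 1134 CPM in the latter. Ctss, the protease that trims the invariant chain, was at 1578 and 1139 CPM in lung macrophage or monocyte-like cells and at 1150 and 2132 CPM in synovial ones. Of 7 genes of the promoter complex, 1 was up in lung dendritic-like cells (Rfx5), 1 up in synovial dendritic-like cells (Rfxap) and 2 down in synovial macrophage or monocyte-like cells (Rfxank and Creb1).

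Irf1, a transcription factor of the interferon gamma response, was lower in TNF+ samples in both types of both tissues. It was at 180 and 90.8 CPM in lung macrophage or monocyte-like cells (-0.99), 191 and 71.8 CPM in lung dendritic-like cells (-1.41), 137 and 23.1 CPM in synovial macrophage or monocyte-like cells (-2.57) and 109 and 33.8 CPM in synovial dendritic-like cells (-1.69). The 3 other genes given from that route, those with the most UMIs, were not all lower. Ifngr1, a chain of the interferon gamma receptor, was at 0.40 in both lung types, -1.16 in synovial macrophage or monocyte-like and 0.61 in synovial dendritic-like cells. Jak1, a kinase of the receptor, was at 0.39 and 0.00 in lung macrophage or monocyte-like and dendritic-like cells and at -0.87 and -0.93 in the synovial ones, and Irf2 at -0.11 in both lung types and -1.56 and -0.59 in synovium. March1 and Cd83, which act on the removal of class II from the surface, were both 2-fold down in both synovial types, where 19.3% and 16% of all genes were, with March1 at 113 and 44.9 CPM in macrophage or monocyte-like and 70.3 and 20.9 CPM in dendritic-like cells. In lung both were within 2-fold.

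Of 11 genes of class I presentation, 2 were 2-fold down in lung macrophage or monocyte-like cells (Tap1 and Nlrc5), near the 14.1% of all genes, and 5 in synovial ones (B2m, Tap1, Tap2, Nlrc5 and Psmb9), against 19.3%, with 0 past 2-fold in dendritic-like cells of either tissue. B2m, the class I light chain, was at 2329 and 1049 CPM in synovial macrophage or monocyte-like cells and at 2322 and 2509 CPM in lung ones. Of 6 genes of costimulation, Cd274 (PD-L1) was higher in 3 of the 4, at 168 and 372 CPM in lung and 81.2 and 189 CPM in synovial macrophage or monocyte-like cells and at 25.5 and 212 CPM in synovial dendritic-like cells, and was at 115 and 90.8 CPM in lung dendritic-like cells. Others of the list past 2-fold were Pdcd1lg2, up in lung macrophage or monocyte-like and synovial dendritic-like cells, Cd40, up in synovial dendritic-like cells, Icosl, down in both synovial types, and Cd86, down in synovial macrophage or monocyte-like cells. H2-Eb2, a neighbour in the class II region that is no member, was at 9.37 and 45.9 CPM in synovial dendritic-like cells and 4.55 and 0.66 CPM in synovial macrophage or monocyte-like cells. In lung it was at 39.1 and 55.5 CPM in dendritic-like cells (0.50) and at 2.03 and 5.80 CPM in macrophage or monocyte-like cells (1.51), the opposite direction to the synovial ones.

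Across 46 library-by-type sums, the levels of H2-Ab1 (Pearson r 0.98), H2-Aa and H2-Eb1 (both 0.97) were closest to those of Cd74 on the log2(CPM + 1) scale. H2-DMb1 was at 0.91, H2-DMa at 0.90, Ciita at 0.87, H2-DMb2 at 0.84, H2-Ob at 0.77 and H2-Oa, at 0.65. Of the 17810 genes compared, the 5 non-members nearest to Cd74 were Ly86 (0.89), Pkib (0.87), Fgd2 (0.87), Napsa (0.86) and Uvrag (0.84). Napsa encodes an aspartic protease found in alveolar type 2 cells, and Ly86 a partner of a Toll-like receptor homologue of B cells and myeloid cells. The 46 sums share 4 libraries and their depth, and the coefficients are a description.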

How the data were processed

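Single-cell RNA was measured in 4 libraries, TNF- and TNF+ lung and synovium. Per the labels and the study's methods, the authors aligned and counted the reads with Cell Ranger 7.0.1 against mm10 and deposited filtered count matrices (UMIs per gene and barcode), whose default counting includes introns. Cells with 200 to 5000 genes and at most 20% mitochondrial UMIs were kept. Each tissue was clustered with scanpy 1.11.5 (2000 variable genes without the class II genes, 30 components, 20 neighbours, Leiden resolution 0.8), and clusters were named from marker lists. No cell annotation was used. Doublets were not removed, except in an alternative. UMIs were summed per library and type. Levels have exact Poisson intervals, shares of cells exact Clopper-Pearson intervals and ratios conditional binomial intervals, all at 95% and for counting error only. With 1 library per group no test was run, and a gene was counted as called at 2-fold with at least 20 UMIs over both libraries. A count of 0 was read against a floor of 3 UMIs. The scripts were tested on simulated data. Members and gene lists were chosen with earlier results of these data known. All 10 members were described. Of each companion list, values were given for at most 4 genes, among those with the most UMIs over all libraries, and genes past 2-fold were named after their values were seen. The 5 genes most like Cd74 were taken by Pearson r among genes with at least 100 UMIs, over sums of at least 50 cells. Python 3.11.15, numpy 2.4.6, scipy 1.17.1, pandas 2.3.3 and leidenalg 0.10.2 were used. Counts over the interferon gamma list are not reported here.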

Additional observations from a re-analysis of the deposited data

Results flagged for a closer look

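Cells above the upper gene limit, which the comparisons left out, held 40.4% of the class II UMIs of TNF- lung, 56.6% of TNF+ lung, 24.8% of TNF- synovium and 2.05% of TNF+ synovium. The class II sum of T cell-like cells went in opposite directions in the tissues, with a log2 ratio of 1.07 in lung and -3.17 in synovium. In synovium it was 21.5 UMIs per cell in TNF-, from few cells as described above, and 1.30 in TNF+. The difference between tissues was not tested. The class II sum of mural-like cells also went in opposite directions, with 2.92 in lung and -2.11 in synovium, and the difference was not tested. In lung these cells were mostly cluster 27 in TNF- (85 of 106) and cluster 25 in TNF+ (87 of 96), at median depths of 7120.5 and 642 UMIs. They had 3.88 and 6.99 class II UMIs per cell, below the T cell-like cells of the same libraries (4.08 and 8.64).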

How the results depend on the processing

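No paired analysis was possible because each group was 1 library, and no replicate could be left out. Log2 ratios of the class II sum are given per setting. With no filter on cells they were, in lung, 0.77 for the whole tissue, 0.19 for myeloid cells, 0.73 for endothelium and 2.18 for mesenchyme, and in synovium -0.27, -1.37, -0.10 and -0.51. With the stricter filter they were 0.34, -0.29, 0.21 and 1.48 in lung, and 0.45 (whole) and 0.046 (endothelium) in synovium. With median-of-ratios scaling they were 0.72 (whole), -0.060 (myeloid) and 0.37 (endothelium) in lung, and 0.54, -1.25, 0.43 and 0.49 in synovium. With each cell weighted equally they were 0.46, -0.071, 1.35 and 3.06 in lung, and 0.48 (whole), -1.45 (myeloid) and 0.93 (mesenchyme) in synovium. With the highest doublet scores removed they were 0.45, -0.014, 0.55 and 3.90 in lung, and 0.43, -1.50, -0.071 and 0.46 in synovium. With each library clustered by itself they were -0.25 for lung myeloid cells, and -1.41, 1.31 and 0.66 for synovial myeloid cells, endothelium and mesenchyme. At resolution 1.6 myeloid cells were at -0.30 in lung and -1.41 in synovium. With the T cell-like level subtracted they were 0.32, -0.37 and -1.15 (endothelium) in lung, and 1.04 (whole) and -1.44 (myeloid) in synovium. The level subtracted was 21.5 UMIs per cell in TNF- synovium, held mostly by few cells, and 1.30 in TNF+ synovium. With the level of T cell-like cells under 5 thinned UMIs, chosen after seeing the data, the ratios were 0.30, -0.35, -0.37 and -2.63 (mesenchyme) in lung, and 1.50 for synovial endothelium. Subtraction of the full T cell-like level left nothing to compare in lung mesenchyme, synovial endothelium and synovial mesenchyme. With no filter H2-Oa in lung endothelium was at -0.44 and H2-DMb2 in synovial macrophage or monocyte-like cells at -3.36. Of 154 alternative values of 18 summed ratios, 10 changed sign, and of 325 values of 65 ratios of single members, 42 did. Far more moved outside the counting interval of the main value, 113 of the 154 and 137 of the 325. The causes were not tested.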
